A study of Mus musculus with 18 samples.

Results

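In naive CD4 T cells of the mouse, 132 genes were higher after interleukin 6 (IL-6) in wild type (WT) cells and were not higher in cells that lack the transcription factor STAT3. They include Myo6, a motor protein of actin filaments, Rragd, a GTPase that brings amino acid signals to mTORC1, the kinase Map3k8, the transcriptional co-regulator Sbno2 and the AP-1 subunit Junb. The genes were chosen by their measured values, from 18193 genes that had a probe set for their symbol alone. Each gene was read from the probe set with the highest mean over all arrays, as log2 of the deposited signal plus 32. A gene was kept where its WT IL-6 mean was at least 8, where WT IL-6 exceeded WT medium by at least 0.8 with every IL-6 array above every medium array, and where IL-6 minus medium was below 0.3 in STAT3-deficient cells. Of 254 genes that met the WT conditions, 111 had a STAT3-deficient change of 0.3 or more. Another 11 were left out by name, because their symbols belong to gene families or to single well-known genes that were set aside, such as Bcl3, Batf, Bcl6 and Ahr.

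The series measured total RNA on Affymetrix Mouse Genome 430 2.0 Arrays. Naive cells from spleen and lymph nodes, sorted as CD4+CD44-CD62L+CD25-, were cultured for 3 hours without cytokine (medium), with 20 ng/ml IL-6 or with 20 ng/ml IL-27. Both genotypes had the strain label C57BL/6J, and the STAT3-deficient mice had the genotype label Cd4-Cre_C57BL6-STAT3<tm1Dlv> (STAT3KO). The 6 groups held 3 arrays each, described in the series as biological triplicates, and 18 arrays were analysed in all. Cre under the control of Cd4 deletes in developing T cells, so the cells had lacked STAT3 since before the culture and other cell types of the mouse keep the gene. The labels call the controls wild type and do not say whether they carried Cre or a floxed allele.

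IL-6 binds its receptor chain, encoded by Il6ra, and the shared signalling chain gp130, encoded by Il6st. Kinases of the JAK family attached to gp130 then phosphorylate STAT3, which enters the nucleus and binds DNA. IL-27 signals through gp130 together with the chain encoded by Il27ra and also activates STAT3, and STAT3 downstream of IL-6 takes part in the differentiation of Th17 and follicular helper T cells.

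The deleted gene read lower in STAT3-deficient cells on every matched comparison of arrays. Stat3 levels, as normalised log2 values, were 11.54, 11.34 and 11.18 in WT medium, 13.18, 13.18 and 13.34 with IL-6 and 12.87, 12.83 and 13.07 with IL-27. In the STAT3-deficient groups they were 10.19, 10.36 and 10.18, then 11.32, 11.13 and 11.29, then 12.13, 12.18 and 11.72. The signal was thus not absent and was higher with either cytokine in both genotypes. The remaining signal is no check of the deletion, since the position of these probes relative to the deleted exons is not stated in the sources used.

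The arrays of the genotypes differed in more than STAT3. Median signals as deposited were 104.4 to 126.8 units in WT and 131.5 to 190.3 in STAT3-deficient cells. With 3 arrays a group, their number sets the precision. Genes of T cells were high in all groups, with Cd3d means of 14.35 to 14.96, but not steady: Cd3e had a mean of 11.92 in WT medium and 13.15 in STAT3-deficient medium. The summed signal of 9 measured myeloid markers was 809.1 to 1331 on the WT arrays and 3019 to 7805 on the STAT3-deficient arrays. In medium 4 of these 9 were called higher in STAT3-deficient cells and 2 lower, so the markers did not all move together. The summed signal of 7 measured B cell markers was 3240 to 6273 in WT and 6551 to 10760 in STAT3-deficient cells. In all 3 STAT3-deficient groups the array numbered 3 had the lowest myeloid sum and the lowest B cell sum. It was also the highest of its group in all 3 treatments for 23 of the 132 genes (17.4%, against 6.57% of all genes tested), among them Myc, Dusp5 and Car2. The summed signal of 21 genes that respond to cell handling and stress set the same array apart, with 94570 to 96030 on the STAT3-deficient arrays numbered 3, against 41730 to 60550 on the other STAT3-deficient arrays and 48780 to 70060 in WT. These are bulk samples, so fewer cells of a type and less RNA per cell cannot be told apart.

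For the changes below, arrays were made comparable by quantile normalisation, and all 132 genes were among the 11971 that passed the filter on low signals. After that step 112 of the 132 still met the conditions above. Myo6 and Skap2 did not, since their STAT3-deficient IL-6 changes became 0.36 and 0.38. The choice was also tied to single arrays: 70 genes met the conditions whichever array was left out, and 62 dropped out without some one array.

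With IL-6 in WT cells the 132 genes were higher by a median of 1.00 on the log2 scale, and in STAT3-deficient cells the median was 0.00, with 66 genes above 0 and 66 below. These values chose the genes and are a description. Markers of T cells went the other way in WT: with IL-6, 4 of 6 measured T cell markers and 3 of 3 naive T cell markers were called lower (medians of -0.65 and -0.71), where 4.66% of all genes were. The summed T cell markers were 89670 to 91410 in WT medium and 63720 to 65680 with IL-6, and 78910 to 90470 and 71880 to 85620 in STAT3-deficient cells, and their part in the result was not tested. The range in WT ran from 0.74 for Stx11, which encodes a syntaxin needed for cytotoxic granule release, to 3.10 for Myo6. Myo6 read 6.95, 7.52 and 7.76 in WT medium and 10.71, 10.49 and 10.32 with IL-6, an 8.55-fold difference. In STAT3-deficient cells it read 6.59, 6.16 and 6.97 in medium and 6.92, 6.52 and 7.37 with IL-6. All WT IL-6 arrays of Myo6 lay above every other array of the series, and the STAT3-deficient IL-6 arrays overlapped those in medium. Rragd read 8.13, 7.70 and 7.15 in WT medium, 10.46, 10.71 and 10.87 with IL-6, and 8.27, 8.11 and 8.30 on the STAT3-deficient IL-6 arrays. Sbno2 read 8.58, 8.59 and 8.87 in WT medium, 11.10, 11.11 and 11.08 with IL-6, and 9.15, 9.44 and 9.39 with IL-6 in STAT3-deficient cells. For both genes the WT IL-6 arrays stood apart from all others, while those of STAT3-deficient cells were within the span of the remaining groups.

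**Figure D1:**
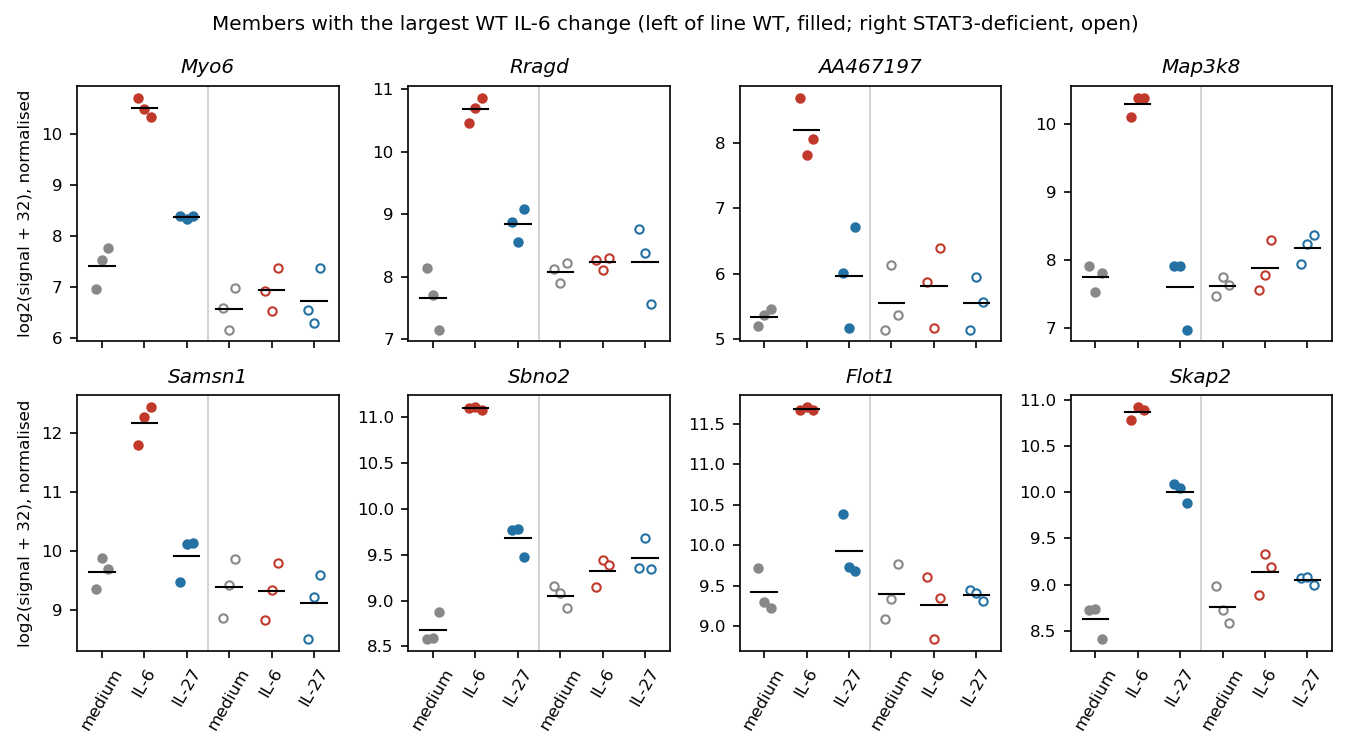
Level of the 8 genes with the largest WT IL-6 change, as normalised log2(signal + 32) on each array; filled points are WT, open points are STAT3-deficient, bars are group means, n = 3 arrays per group. In every panel the 3 red filled points (WT with IL-6) lie above all other points. The WT IL-27 points (blue) of Myo6, Rragd, Sbno2 and Skap2 lie between WT medium and IL-6, and those of the other panels overlap WT medium.

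The remaining 5 of the 8 largest WT differences were those of AA467197 (2.85), Map3k8 (2.56), Samsn1 (2.52), Flot1 (2.27) and Skap2 (2.24), with SE of 0.47, 0.24, 0.30, 0.21 and 0.14. Map3k8 encodes a kinase upstream of ERK, Samsn1 an adaptor that restrains lymphocyte activation, Flot1 a scaffold of membrane rafts, and Skap2 an adaptor that links surface receptors to actin. Samsn1 was already abundant in WT medium (9.36, 9.88 and 9.70) and read 11.79, 12.28 and 12.44 with IL-6. On the STAT3-deficient IL-6 arrays it read 8.84, 9.34 and 9.79, with each array close to its medium counterpart of the same number (8.86, 9.43 and 9.87).

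**Figure D2:**
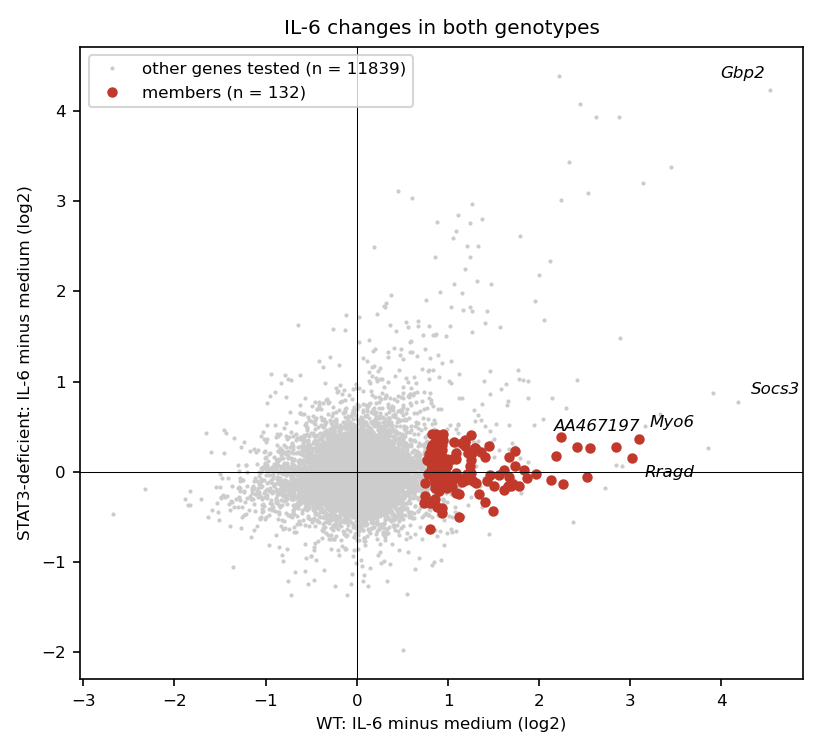
IL-6 minus medium in WT (x axis, log2) against IL-6 minus medium in STAT3-deficient cells (y axis, log2) for the 132 genes (red) and the 11839 other genes tested (grey). The red points lie right of 0.7 on the x axis and near 0 on the y axis because they were chosen so; Socs3 (4.18 in WT, 0.77 in STAT3-deficient cells) and Gbp2, which are not among them, lie higher.

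STAT proteins bind the palindrome TTCNNNGAA, and TTCCNGGAA is a narrower form of it. Both were searched in promoter windows of 300 bases, from 250 before to 50 after an annotated start, taken from RefSeq on build GRCm38.p6. Each motif is its own reverse complement, so one search covers both strands, and every match of the narrower form is also a match of the broader one. Of the 132 genes, 103 had a window in this table, with 151 windows in all. The broader form was in 19 of the 151 windows (12.6%) and in 8.30% of all 32851 windows. The narrower form was in 6 of 151 (3.97%) and in 1.15% of all. A match is a description of the letters, and no binding was measured here.

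The 6 genes with the narrower form are Sbno2, Scgb3a1, Rbm45, Tnip2, Helb and Armc9. In Tnip2 the match lies after the start and in Helb across it. The upstream sequences of Sbno2 and Rbm45 are shown because both genes stood out with IL-6 and have the motif close to a start, with 15 and 36 bases between the motif and the start. The start of Sbno2 used here is one of its annotated starts and lies inside the gene. The stretch of Sbno2 is chr10:80101188-80101437 on the minus strand, and that of Rbm45, which encodes an RNA-binding protein, is chr2:76369734-76369983 on the plus strand. Both are written 5′ to 3′ along the strand of the gene, with the motif in capitals.
Sbno2: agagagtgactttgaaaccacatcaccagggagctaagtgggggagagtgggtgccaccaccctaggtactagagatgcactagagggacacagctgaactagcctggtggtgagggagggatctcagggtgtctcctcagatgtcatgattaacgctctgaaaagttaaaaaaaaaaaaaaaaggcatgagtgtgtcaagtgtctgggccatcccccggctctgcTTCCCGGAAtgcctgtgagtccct
Rbm45: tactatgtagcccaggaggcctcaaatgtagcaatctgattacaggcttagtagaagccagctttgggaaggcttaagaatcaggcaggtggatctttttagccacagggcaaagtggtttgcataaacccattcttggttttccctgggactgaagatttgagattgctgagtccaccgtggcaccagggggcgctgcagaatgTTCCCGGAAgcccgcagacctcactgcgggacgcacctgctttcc

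For comparison, the motif of Scgb3a1 and of Armc9 lay 185 and 229 bases before the start. They are shown with their flanks, chr11:49663381-49663429 and chr1:86154530-86154570, both on the plus strand and with the motif in capitals. 
Scgb3a1: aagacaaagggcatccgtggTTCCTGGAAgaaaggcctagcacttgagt
Armc9: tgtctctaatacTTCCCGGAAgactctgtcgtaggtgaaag
With IL-6 in WT cells Sbno2 was higher by 2.42, Scgb3a1, a small secreted protein of epithelia, by 1.87, Rbm45 by 1.56 and Armc9 by 0.85. Rbm45 read 9.33, 9.13 and 9.23 in WT medium, 10.75, 10.79 and 10.84 with IL-6, and 9.37, 9.09 and 9.46 with IL-6 in STAT3-deficient cells, where it stayed within its range in medium (9.02 to 9.55).

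By textbook function, 107 of the genes fall into 10 groups and 25 were not assigned. The 13 regulators of transcription and chromatin had a median WT IL-6 difference of 0.92, led by Sbno2 (2.42) and Junb (1.41 ± 0.13 SE), followed by the co-repressor Cbfa2t3 (1.06) and the zinc finger protein Hivep2 (1.05). Junb read 11.06, 11.09 and 10.95 in WT medium and 12.29, 12.57 and 12.46 with IL-6. Its STAT3-deficient levels with IL-6 were 11.32, 11.24 and 11.56, inside or just above those in medium (10.91, 11.20 and 11.53). Prdm1, which encodes the repressor Blimp-1, differed by 0.94 in WT and by 0.42 without STAT3, above the limit of the choice once arrays were normalised. Myc, the growth regulator, differed between arrays of a group almost as much as between treatments, reading 9.71, 10.41 and 10.48 in WT medium and 10.62, 11.26 and 11.19 with IL-6.

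Among 5 genes of RNA binding and decay, Zfp36, which encodes the mRNA decay factor tristetraprolin, led with 1.62, followed by Rbm45 (1.56) and Zc3h12d, an endoribonuclease of the Regnase family (1.21 ± 0.14 SE). Zc3h12d read 10.46, 10.50 and 10.16 in WT medium, 11.69, 11.50 and 11.56 with IL-6, and 10.25, 10.42 and 9.96 with IL-6 in STAT3-deficient cells. Zfp36 is also in the list of genes that respond to cell handling and stress, of which 21 were measured and 2 are among the 132 (Zfp36 and Junb). The median WT IL-6 difference of that list was 0.08, with 2 genes called higher and 1 lower.

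The 14 surface and secreted proteins had a median of 1.02 and included several cytokine receptors. Il6st, the gp130 chain itself, read 10.48, 10.48 and 10.51 in WT medium and 11.07, 11.49 and 11.52 with IL-6. Il17ra, the shared chain of IL-17 receptors, read 12.64, 12.70 and 12.70 in WT medium and 13.64, 13.80 and 13.96 with IL-6. Il21r read 10.13, 10.22 and 9.91, and with IL-6 10.92, 10.98 and 10.92. That the WT IL-6 arrays did not overlap the medium arrays was a condition of the choice. With IL-6 in STAT3-deficient cells the 3 receptor genes read 10.23 to 10.39, 12.24 to 12.56 and 10.11 to 10.29. The group also held Tspan5, a tetraspanin (1.73), Ly6k, a GPI-anchored protein (1.78), the orphan receptor Gpr146 (1.36), Cd55, which protects cells from complement (1.06), and Tnfsf4, the OX40 ligand (0.90).

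The 22 kinases, phosphatases and adaptors had a median of 1.02. Jak3, which signals below receptors of the common gamma chain, read 7.97, 7.92 and 7.50 in WT medium, 9.41, 9.29 and 9.21 with IL-6, and 8.12, 7.96 and 7.13 with IL-6 in STAT3-deficient cells. Sgk1, a kinase with a known role in Th17 cells, read 11.09, 11.16 and 10.93 in WT medium and 12.28, 12.30 and 12.32 with IL-6. In STAT3-deficient cells Sgk1 was uneven between arrays, with 9.98, 9.89 and 11.21 in medium and 10.21, 9.92 and 11.12 with IL-6. Ptpn1, a phosphatase that acts on JAK kinases, and Ppm1h, a metal-dependent phosphatase, are in the same group.

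The cytoskeletal and GTPase group (14 genes, median 1.22) held Frmd4b (1.84), the Rab regulator Tbc1d9b (1.67) and Plekho1 (1.45) beside Myo6. In membrane traffic and autophagy (9 genes, median 0.97), Vmp1, needed to form autophagosomes, differed by 1.96 ± 0.11 SE and Flot1 by 2.27. Vmp1 read 10.48, 10.41 and 10.64 in WT medium, 12.48, 12.44 and 12.50 with IL-6, and 10.54, 10.74 and 10.61 with IL-6 in STAT3-deficient cells. In the cell cycle group (8 genes, median 1.17) were the inhibitors Cdkn2d (1.72) and Cdkn1a (1.46) and the single-strand DNA-binding protein Nabp1 (1.67) as well as Mcm4 of the replicative helicase (1.25). The size for Cdkn1a leans on a single low array. It read 7.92, 8.32 and 6.20 in WT medium and 8.50, 9.06 and 9.26 with IL-6, and a further probe set gave 0.40. Inhibitors of the cycle and a replication gene were thus both among the higher genes.

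In the 6 ubiquitin ligase components the median was 0.99, led by Rnf19a (1.43), which read 11.09, 11.09 and 11.10 in WT medium and 12.56, 12.51 and 12.50 with IL-6. The 12 metabolic enzymes had a median of 0.92, and Tha1, a threonine aldolase, led with 2.19 ± 0.19 SE. Among 4 proteases and protease inhibitors were Slpi, a secreted inhibitor of serine proteases (1.74), and Lgmn, the lysosomal protease legumain (1.31).

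Genes close to the limits of the choice differed little from those beyond them. On the scale of the choice, Stx11 (0.8025) and 9030607L20Rik (0.8065) were just inside the WT limit, and Rab4b (0.7948) and Tespa1 (0.7932) just outside. For the STAT3-deficient limit, Uimc1 (0.2947) and Cdk6 (0.294) were inside, and Gpr18 (0.3055) and Ndrg3 (0.306) outside. For the level, G530011O06Rik (8.0016) and Sugct (8.0325) were inside, and Napepld (7.9969) and Ly75 (7.9057) outside. Ces5a entered through a single low array. It read 9.07, 9.36 and 6.38 in WT medium and 9.46, 9.79 and 10.03 with IL-6, and without the WT medium array 3 it was not chosen. In STAT3-deficient cells Ces5a read 11.81, 11.58 and 10.97 in medium and 10.40, 11.60 and 11.05 with IL-6, above every WT array. In medium, 81 of the chosen genes were above WT in STAT3-deficient cells and 51 below (median 0.14). With IL-6, 6 were above and 126 below (median -0.93). Both comparisons rest on arrays used in the choice.

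Other probe sets, which had no part in the choice but share the RNA, gave smaller differences. For 78 genes the array has 153 further probe sets, of which 120, for 69 genes, passed the filter. Of these, 111 were higher with IL-6 in WT and 56 by at least 0.8, with a median of 0.75 in WT and 0.05 in STAT3-deficient cells. In STAT3-deficient cells 98 of the 120 were below 0.3. Those at 0.3 or more include probe sets of Sbno2 (0.51 and 0.55), Bbx (0.90) and Abtb2 (1.36). Further probe sets of Myo6 gave 1.66 and 2.53 in WT. A second probe set of Ly6k gave -0.33, against 1.78 on the chosen one, and one of Rragd gave 0.07, so the probe sets of these genes disagree.

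With IL-27, many of the genes were also higher in WT cells, by less than with IL-6. The IL-27 comparisons with medium share the medium arrays that chose the genes and are likewise descriptions. The genes were also chosen for high values on the WT IL-6 arrays. An order of IL-6 above IL-27 is therefore largely built in by the choice. The median WT difference with IL-27 was 0.41, against -0.04 over all genes tested. Of the 132 genes 114 were above 0 and 18 below, where 57.13% of all genes tested were below 0. In limma, 33 of the 132 passed as higher with IL-27 in WT, where 2.71% of all genes tested did, and 0 passed as lower, where 2.00% of all did and 3 of the 132 had an unadjusted p under 0.05. The count of 33 was 16 with median centring, 17 at an adjusted p under 0.01, 18 with a difference of at least 1.5-fold, 20 without WT medium array 2 or WT IL-27 array 2, and 21 without WT IL-27 array 3. The difference with IL-27 was smaller than that with IL-6 in 127 genes and at least as large in 5, namely Ces5a, Cyp2s1, Tmem106a, Helb and Sema6c, which were singled out after their values were seen. All 3 WT IL-27 arrays lay above all 3 medium arrays in 69 genes (8.87% of all genes tested), and all 3 IL-6 arrays above all 3 IL-27 arrays in 107 (9.21% of all). The reverse order, IL-27 above IL-6, was seen in 1 gene, Cyp2s1 (9.28% of all).

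Cyp2s1, a cytochrome P450, Skap2 and Jak3 were the genes whose WT IL-27 difference was largest among those called, at 1.80 ± 0.19, 1.38 ± 0.14 and 1.30 ± 0.22 (SE). Slpi (1.24) and Ces5a (1.79, not called) complete the 5 largest. Skap2 read 8.72, 8.74 and 8.41 in WT medium and 10.09, 10.04 and 9.88 with IL-27, and Jak3 read 9.23, 8.80 and 9.27 with IL-27. For Jak3 the IL-27 and IL-6 arrays of WT overlapped, and for Skap2 the IL-27 arrays lay between medium and IL-6 without overlap. At the other end were Tnfsf4 (-0.78), Il21r (-0.37), Grk6 (-0.29), Pgap1 (-0.28) and Sgk1 (-0.28), none of which passed the test with IL-27.

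Among the groups, the surface proteins were the one in which IL-27 and IL-6 differed most often in sign. With IL-27 in WT, 6 of 14 genes were below 0, among them Il6st (-0.23), Il17ra (-0.11) and Il21r. Over all genes tested 57.13% were below 0, so 6 of 14 is no excess, and 0 of the 132 were called lower. Il6st read 10.23, 10.23 and 10.33 with IL-27, below each of its medium arrays. Its further probe sets disagree: WT IL-27 minus medium was 0.14 and 0.26 on 2 of them and -0.41 on the other, so the sign for Il6st rests on the probe set. Il21r read 9.65, 9.73 and 9.77 with IL-27, below its medium arrays as well, and Il17ra read 12.44, 12.61 and 12.67, overlapping medium. Every one of the 9 genes of membrane traffic and of the 8 of the cell cycle was above 0 with IL-27 in WT. The highest group medians with IL-27 in WT were 0.57 for transcription and chromatin and 0.52 for the cytoskeletal group, and the lowest was 0.14 for the surface proteins.

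**Figure D3:**
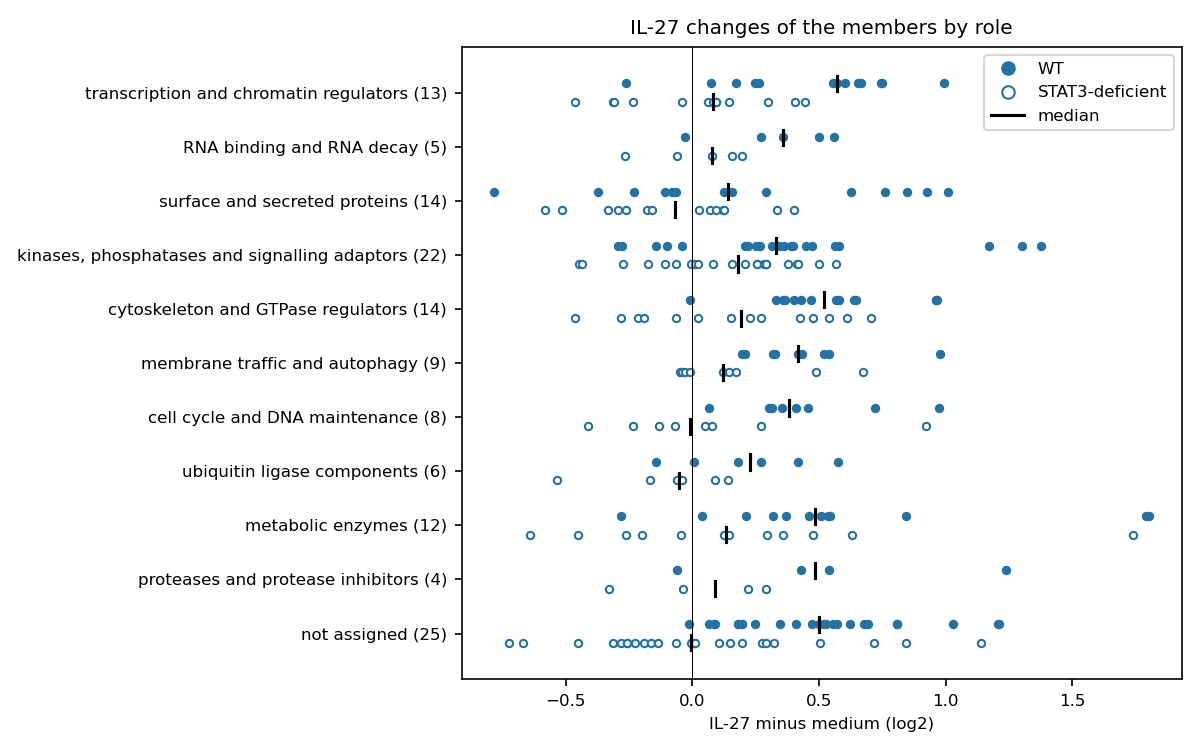
IL-27 minus medium (x axis, log2) of each gene by functional group (number of genes in brackets); filled points are WT, open points are STAT3-deficient, and black bars are group medians. WT medians lie between 0.14 and 0.57 and STAT3-deficient medians nearer to 0, with Cyp2s1 at 1.80 and 1.74 as the gene farthest to the right in both genotypes.

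Without STAT3, the median difference with IL-27 was 0.07 (-0.03 over all genes tested). Of the 132 genes 74 were above 0 and 58 below, where 54.22% of all genes tested were below 0. The difference with IL-27 was larger in WT than in STAT3-deficient cells for 111 of the 132. The medium arrays of both genotypes took part in the choice, so this order is partly built in. Its share over all genes was not counted. As higher with IL-27 in STAT3-deficient cells, 10 genes passed the test, where 3.28% of all genes did, and 3 passed as lower, where 1.70% did. The count of 10 was 2 with only the arrays compared, 3, 6 and 5 without medium array 1, medium array 2 and IL-27 array 1, 4 at an adjusted p under 0.01 and 6 with at least 1.5-fold, and the median was -0.017 with the deposited scaling. All 3 IL-27 arrays lay above all 3 medium arrays in 23 genes (8.10% of all genes tested). Cyp2s1 read 9.10, 9.01 and 8.82 in STAT3-deficient medium, 9.37, 8.68 and 9.27 with IL-6 and 10.70, 10.63 and 10.81 with IL-27. In WT it read 9.20, 8.98 and 8.47 in medium and 10.71, 10.54 and 10.81 with IL-27, so the IL-27 arrays of both genotypes coincided. Cdk6, a cyclin-dependent kinase, read 8.31, 8.55 and 8.52 in STAT3-deficient medium and 9.22, 9.57 and 9.34 with IL-27, above all its medium arrays. Vmp1 also passed there, with a difference of 0.49, against 0.98 in WT.

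The comparison that the choice did not use is that of the genotypes on the 6 IL-27 arrays, apart from the mean that picks a probe set. With IL-27, STAT3-deficient cells had lower levels than WT cells for 27 of the 132 genes (20.5%), where 6.62% of all genes tested were called lower. They had higher levels for 7 (5.30%), where 9.61% of all were called higher. The genes called lower include Myo6, Ppm1h, Lgmn, Tha1, Skap2, Cd55 and Jak3, and those called higher include Tnfsf4, Prkch and Lcp1. At an unadjusted p under 0.05 the counts were 44 and 8. The median difference over the 132 genes was -0.21 (quartiles -0.51 and 0.07), against 0.03 over all genes tested. Of the 132 genes 88 were below 0, where 46.98% of all genes tested were. All 3 WT IL-27 arrays lay above all 3 STAT3-deficient IL-27 arrays for 41 genes (14.7% of all genes tested), and the reverse held for 13 (18.7% of all). Calls are by limma with Benjamini-Hochberg adjustment at 0.05.

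**Figure D4:**
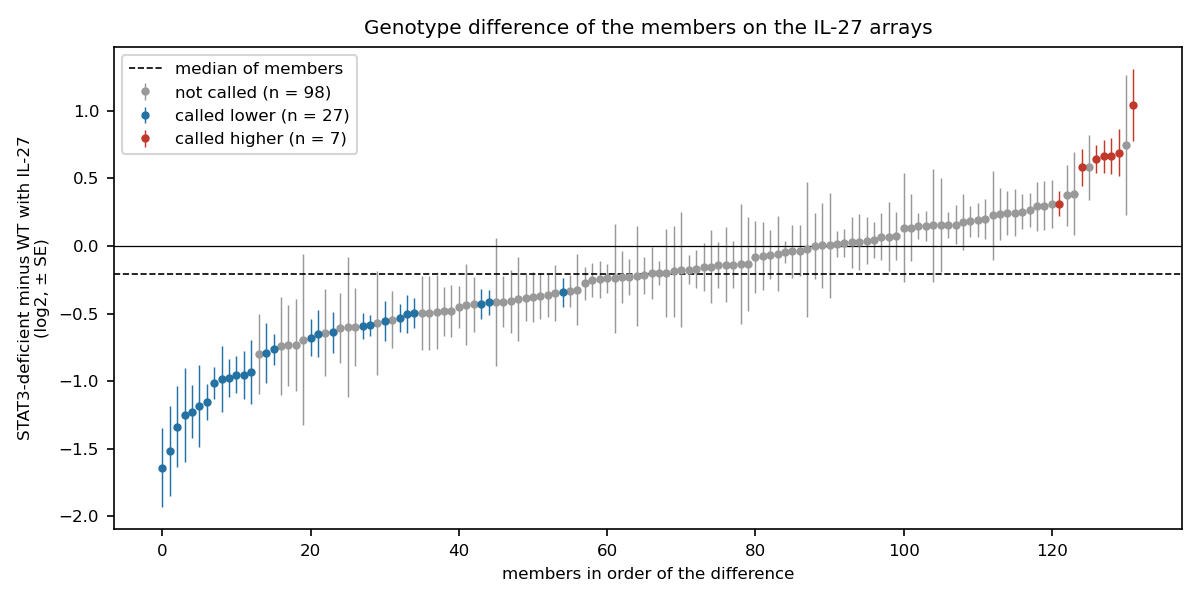
STAT3-deficient minus WT on the IL-27 arrays (y axis, log2, points with ± SE of the model, 3 arrays per group) for the 132 genes in order of the difference (x axis). The 27 genes called lower (blue) run from -1.64 (Myo6) to -0.34 (Vmp1), the 7 called higher (red) from 0.31 (Jund) to 1.04 (Tnfsf4), and the dashed line is the median of -0.21.

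This count rests on the scaling between arrays. When each array was centred on its median in place of quantile normalisation, 54 of the genes were called lower, the 27 among them, and 2 higher. The calls over all genes then moved in the same direction: 83.6% of all calls were lower, against 40.8% with quantile normalisation, and the median over all genes went from 0.03 to -0.19. The median of the 132 genes minus that over all genes was -0.24 with quantile normalisation and -0.27 with median centring. Summed markers of other cell types moved with the genotype too. On the IL-27 arrays the summed myeloid markers were 987.1 to 1187 in WT and 3019 to 7125 in STAT3-deficient cells. Of the 9, 3 were called higher and 0 lower (median 0.63). Mean levels of S100a8 went from 6.73 to 10.93 and those of S100a9 from 5.29 to 10.45. Means of Fcgr3 (7.88 to 7.29), Cd68 (7.56 to 7.21), Csf1r (8.01 to 7.98) and Fcer1g (7.43 to 7.34) went the other way. The B cell markers were 4189 to 4963 and 6551 to 9912, with 4 of the 7 called higher (median 1.18). None of these markers is among the 132 genes, and their part in the result was not tested. Without the 3 STAT3-deficient arrays numbered 3, which had the lowest sums of both and the highest sums of handling and stress genes, 28 genes were called lower, 23 of them among the 27, and 7 higher.

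Ppm1h gave one of the clearest differences, lower in STAT3-deficient cells (-1.16 ± 0.13 SE, adjusted p = 2.26e-05, limma, 3 arrays per group), a 2.23-fold difference. It read 12.40, 12.51 and 12.48 with IL-27 in WT and 11.57, 11.13 and 11.23 in STAT3-deficient cells, without overlap. In WT medium it read 11.92, 11.87 and 11.87, and in STAT3-deficient medium 11.49, 11.04 and 11.42, so a part of the difference (-0.57) was there before the cytokine. Lgmn differed by -1.01 ± 0.12 (adjusted p = 2.27e-05, limma). It read 10.58, 10.59 and 10.50 with IL-27 in WT and 9.29, 9.58 and 9.75 in STAT3-deficient cells, against 10.18, 10.13 and 10.07 and 9.87, 9.79 and 9.95 in medium. Its difference in medium was -0.26, and the gap between genotypes was wider with IL-27, which was not tested.

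For Skap2 and Jak3 the difference was seen with IL-27 and not in medium. The medium arrays took part in the choice, so the contrast with medium is a description and was not tested. Skap2 averaged 9.05 ± 0.05 (SD, n = 3) with IL-27 in STAT3-deficient cells, each array below the WT arrays, and differed by -0.95 ± 0.14 (adjusted p = 0.000224, limma), against 0.13 in medium. Jak3 read 8.53, 8.22 and 8.17 with IL-27 in STAT3-deficient cells and differed by -0.79 ± 0.22 (adjusted p = 0.0225, limma), against 0.10 in medium. The call of Jak3 was lost without the WT IL-27 array 1 or 3 or the STAT3-deficient IL-27 array 2 or 3 (adjusted p = 0.0654 to 0.0790), at differences of -0.71 to -0.75. Of further probe sets of Skap2, one gave -0.77 and another 0.11 with IL-27, so they disagree.

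Tha1 read 9.43, 9.10 and 8.84 with IL-27 in WT and 7.91, 7.90 and 7.89 in STAT3-deficient cells, a difference of -1.23 ± 0.19 (adjusted p = 0.000471, limma). Myo6 read 8.39, 8.33 and 8.38 against 6.54, 6.29 and 7.36, which gave -1.64 ± 0.29 (adjusted p = 0.00118, limma). Neither gene overlapped between genotypes, and both already differed in medium, by -0.84 and -0.83. Cd55 read 10.96, 11.04 and 10.75 with IL-27 in WT and 9.95, 10.05 and 9.82 without STAT3, a difference of -0.98 ± 0.14 (adjusted p = 0.000183, limma), against -0.52 in medium. Cks2, a small partner of cyclin-dependent kinases, read 11.80, 11.89 and 11.67 in WT, averaged 10.45 ± 0.47 (SD, n = 3) without STAT3 and differed by -1.34 ± 0.30. Further probe sets of Myo6 (-1.46 and -1.11), of Cd55 (-0.52 and -0.95), of Ppm1h (-0.70) and of Cks2 (-0.76) had the same sign.

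**Figure D5:**
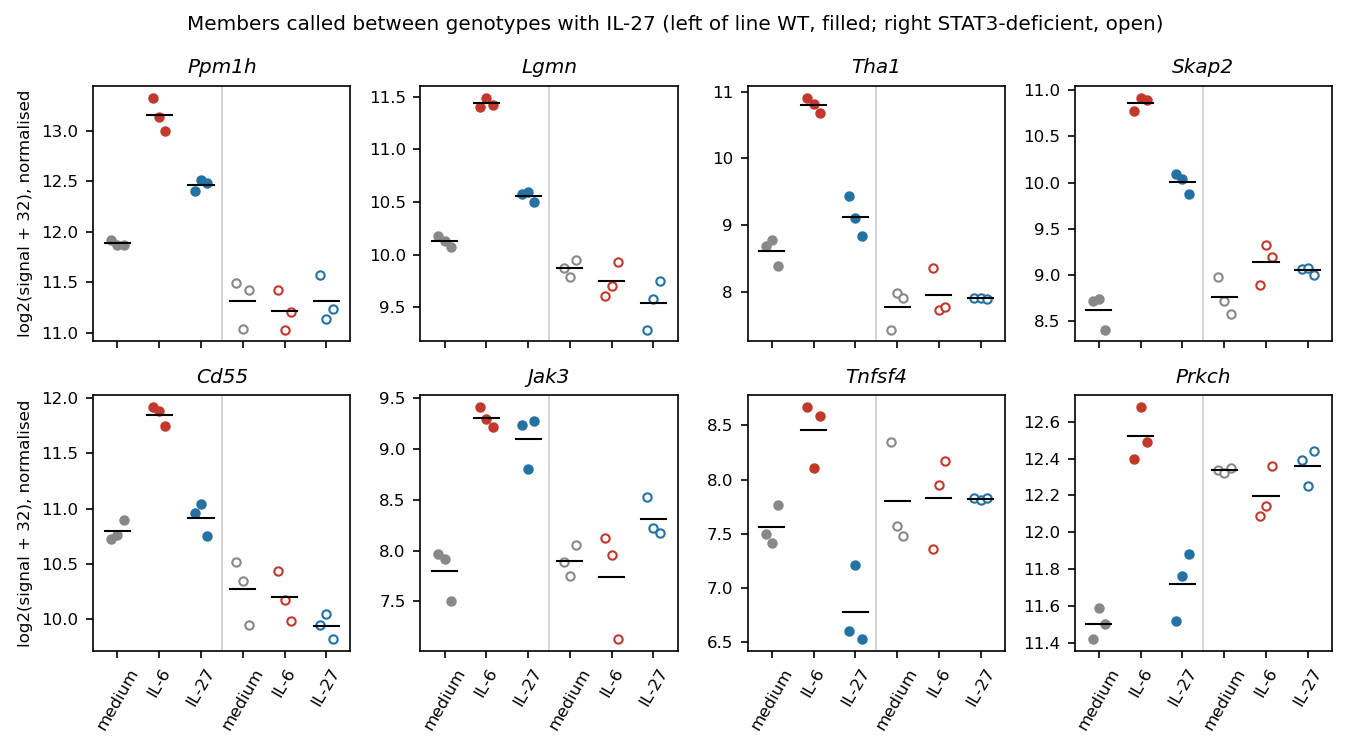
Level of 8 genes called between genotypes on the IL-27 arrays, as normalised log2(signal + 32) on each array; filled points are WT, open points are STAT3-deficient, bars are group means, n = 3 arrays per group. The blue filled points (WT, IL-27) lie above the blue open points for Ppm1h, Lgmn, Tha1, Skap2, Cd55 and Jak3 and below them for Tnfsf4 and Prkch.

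The other 19 genes called lower had differences between -1.52 and -0.34. The largest were D730005E14Rik (-1.52), G530011O06Rik (-1.25), Ly6k (-1.18) and Apobec3, a DNA-editing restriction factor (-0.98). G530011O06Rik was dim with IL-27 in both genotypes, at 6.52, 7.03 and 6.57 in WT and 5.79, 5.31 and 5.27 in STAT3-deficient cells. Its highest arrays were those with IL-6 in WT (8.02, 8.63 and 7.77), which took part in the choice. Its difference is thus limited by signal over background. A second probe set of Ly6k had the opposite sign (0.51), and Ly6k was not called when all its probe sets were averaged. Of the 27, 20 were also below WT in medium and 7 above, and in 26 the difference was more negative with IL-27 than in medium, the exception being Txk, a Tec family kinase (-0.59 with IL-27, -0.66 in medium). All 27 had a WT IL-27 difference above 0, and 10 of them were among the 33 called higher with IL-27 in WT. Over the 31 alternatives that kept the threshold, 16 of the 27 were called lower in each one that tested them, among them Myo6, Skap2, Tha1, Lgmn, Ppm1h, Cd55 and Cks2. Of these 16, Zswim6 (-0.53), Nabp1 (-0.50) and Myl12b (-0.42) differed by less than 1.5-fold. G530011O06Rik was called lower in 23 of the 30 alternatives that tested it.

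The 7 genes called higher without STAT3 were all above WT in medium as well. Tnfsf4 read 6.60, 7.21 and 6.53 with IL-27 in WT and 7.83, 7.81 and 7.83 in STAT3-deficient cells, a difference of 1.04 ± 0.27 (adjusted p = 0.0133, limma). In medium the genotypes overlapped (7.50, 7.42 and 7.77 against 8.35, 7.57 and 7.48), so this gene differed where WT cells with IL-27 were low. Its call was lost without the WT IL-27 array 1 (adjusted p = 0.0530) or 3 (0.0517). Prkch, a protein kinase C of T cells, read 11.52, 11.76 and 11.88 against 12.39, 12.25 and 12.44 with IL-27 (0.64 ± 0.10) and differed by 0.84 in medium. Its second probe set gave -0.29, the opposite sign. Lcp1, the actin bundling protein L-plastin, differed by 0.66 with IL-27 and 0.72 in medium. With median centring Prkch (0.24), Lcp1 (0.27), Nup153 (0.27) and 9030607L20Rik (0.32) were no longer called and Jund turned to -0.12.

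By group, the cytoskeletal genes had 6 of 14 called lower and 1 higher with IL-27 (median -0.46), and the 22 kinases, phosphatases and adaptors had 4 lower and 1 higher (median -0.30). Membrane traffic had 3 of 9 lower and 1 higher, the cell cycle 2 of 8 lower, and the surface proteins 2 of 14 lower and 1 higher. Of the 13 regulators of transcription and chromatin 0 were called lower and 1, Jund, higher, and their median was -0.03. The cytoskeletal genes called lower were Myo6, Tbc1d9b (-0.68), Sh3bp1 (-0.65), Iqgap2 (-0.55), Trio (-0.50) and Myl12b (-0.42), which encode a motor, GTPase regulators, a scaffold and a myosin light chain. Over all genes tested 6.62% were called lower and 9.61% higher, so 0 and 1 of the 13 regulators are near those shares. Differences between groups were not tested.

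Sbno2 and Junb, which led the transcription group with IL-6, did not pass. Sbno2 read 9.77, 9.78 and 9.48 with IL-27 in WT and 9.36, 9.68 and 9.34 in STAT3-deficient cells, overlapping (-0.22 ± 0.13, adjusted p = 0.285, limma). When all probe sets of Sbno2 were averaged, it was called (-0.48, adjusted p = 0.00540). Junb read 11.61, 11.66 and 11.49 against 11.26, 11.32 and 11.49 (-0.23 ± 0.13, adjusted p = 0.244, limma). Rragd differed by -0.61 ± 0.26 (adjusted p = 0.123), and Map3k8 was above 0 (0.58 ± 0.24, adjusted p = 0.105, limma). Map3k8 read 7.91, 7.90 and 6.97 with IL-27 in WT, no higher than in medium (7.90, 7.53 and 7.80). In STAT3-deficient cells it read 7.93, 8.23 and 8.37 with IL-27, above all of its medium arrays (7.46, 7.75 and 7.63), and with the deposited scaling the genotype difference was called (0.79, adjusted p = 0.0250, limma).

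How abundant a gene was in WT medium went with how often it was called lower, in the 132 genes and in all genes tested. Below a level of 8 in WT medium, 4 of 34 of the genes were called lower (1.47% of all genes at that level). Between 8 and 10 they were 11 of 50 (5.28%), and from 10 upward 12 of 48 (12.4%). The counts of genes called higher were 1, 2 and 4 at these levels, where 7.83%, 8.71% and 12% of all genes were called higher.

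A further 111 genes met the WT conditions but were higher by 0.3 or more with IL-6 in STAT3-deficient cells. Of these 111, 18 were called lower and 23 higher in STAT3-deficient cells with IL-27, and their median was 0.10. Over all genes tested 6.62% were called lower and 9.61% higher, so both calls were more frequent in the 111 genes. An excess of genes called lower was thus not particular to the 132 genes, of which 27 were called lower and 7 higher. Their median WT IL-27 difference was 1.36, against 0.41 for the 132 genes. The lists had been separated by the IL-6 arrays of STAT3-deficient cells, and their difference on the IL-27 arrays was not tested.

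The neighbouring pathways were described with lists from textbook knowledge. Of 21 genes of the IL-6 receptor pathway, 20 were measured and 2, Il6st and Ptpn1, are among the 132. With IL-6, 7 were called higher and 2 lower in WT and 3 higher in STAT3-deficient cells, where 3.67%, 4.66% and 1.68% of all genes were called. Socs3, the main feedback inhibitor of gp130, was higher by 4.18 in WT and by 0.77 without STAT3. Il6ra read lower with IL-6 in WT (-0.53, not called), and Il27ra was called higher without STAT3 on the IL-27 arrays (0.65 ± 0.14, adjusted p = 0.00435, limma). In medium Il6ra was called lower without STAT3 (-0.69 ± 0.17, adjusted p = 0.00702, limma). The genotypes differed little in Il6ra with IL-6 (-0.06, not called), and its part in the result was not tested.

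Of 48 reported STAT3 targets, 43 were measured and 6 are among the 132: Il6st, Il21r, Junb, Myc, Prdm1 and Cdkn1a. With IL-6, 23 of the 43 were called higher in WT and 5 in STAT3-deficient cells, with medians of 0.85 and 0.16. On the IL-27 arrays 5 of the 43 were called lower without STAT3 and 4 higher, where 6.62% and 9.61% of all genes were. The 5 lower were Stat3 itself (-0.91), Socs3 (-1.26), Batf (-0.85), Bcl3 (-0.59) and Icos (-0.51), none of them among the 132.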

How the data were processed

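RNA of 18 arrays (6 groups of 3) was used. The deposited values are intensities of one channel, produced with GCOS per the submitters' processing notes; its version, algorithm and annotation build were not stated in the sources used. The deposited value table was not yet on a log scale, and its columns had been scaled to a common level. Of 45101 probe sets, 64 controls were left out; 34945 had 1 gene symbol in the platform annotation, 932 several and 9160 none. Every column of values belongs to one of the 18 samples.

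Intensities were turned into log2(signal + 32) and quantile normalised. Probe sets above the median of their array on at least 3 arrays were kept, with the probe set of highest mean for each gene. A group-means model over all 18 arrays was fitted with limma 3.58.1 in R 4.3.3 (lmFit and eBayes with a trend, two-sided), and Benjamini-Hochberg adjustment covered all 11971 genes, with adjusted p under 0.05 as a call. Fold changes are on the log2(signal + 32) scale, which understates those of dim genes. The fit was tested on simulated data. Genes named were the 8 with the largest WT IL-6 change, up to 10 a direction called between genotypes with IL-27, the 5 highest and 5 lowest with IL-27 in WT, up to 4 per functional group by WT IL-6 change, and those nearest each limit. Others, such as Prdm1, Myc, Txk, Ptpn1, Il6st, Iqgap2, Trio, the promoter examples, Batf and Bcl3, were named after their values were seen. The 132 genes and all lists were chosen with earlier results of these data known. Changes with IL-6 and differences between genotypes in medium or with IL-6 rest on arrays used in the choice, and no test is read from them for these genes. The series calls the triplicates biological; beyond that the labels do not say how cultures were separated, so p-values measure the spread between these samples. Same-numbered arrays were not treated as pairs. Alternatives covered the scaling, the added constant, the filter, the probe set rule, the threshold, array weights, the block and leaving out each array.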

Additional observations from a re-analysis of the deposited data

Results flagged for a closer look

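Of the 132 genes, 3 differed in opposite directions with IL-27 in the genotypes: Lgmn, which encodes legumain, Trio, and Usp6nl, a GTPase-activating protein for Rab proteins. The IL-27 minus medium difference of Lgmn was 0.43 in WT cells and -0.33 in STAT3-deficient cells. That of Trio was 0.58 and -0.22, and that of Usp6nl 0.36 and -0.28. For each gene all WT IL-27 arrays lay above all WT medium arrays and all STAT3-deficient IL-27 arrays below all STAT3-deficient medium arrays. In STAT3-deficient cells the nearest medium and IL-27 arrays of Trio both read 10.77 once rounded. How many of all genes tested did so was not counted, so the 3 genes cannot be set against a background. The medium arrays also took part in the choice of the genes, and the difference between the genotypes was not tested.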

How the results depend on the processing

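The STAT3-deficient minus WT result on the IL-27 arrays kept its direction under every alternative run, and its counts moved with the threshold and the scaling. At an adjusted p under 0.01, 17 genes were called lower and 4 higher, and 17 were called higher with IL-27 in WT and 4 in STAT3-deficient cells. With at least a 1.5-fold difference, the counts with IL-27 were 18 in WT and 6 in STAT3-deficient cells. With median centring 54 were lower and 2 higher, the median was -0.46, 16 were higher with IL-27 in WT, and 86 genes met the rule of choice; Jund (-0.12, adjusted p = 0.600, limma) and Mcm4 (-0.37, adjusted p = 0.0449, limma) changed sign. With the deposited scaling the STAT3-deficient IL-27 median turned to -0.017. With the mean of all probe sets the WT IL-27 median was 0.35, and with only the arrays of the groups compared 2 genes were higher with IL-27 in STAT3-deficient cells, where the spread is estimated from fewer arrays. Other causes were not tested.

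Leaving out each array in turn gave 20 to 29 genes called lower and 4 to 7 called higher, with a median of -0.27 to -0.195, 20 to 37 higher with IL-27 in WT (median 0.37 to 0.42), 3 to 11 in STAT3-deficient cells (median 0.02 to 0.09), and 117 to 161 genes meeting the rule of choice. The count higher in STAT3-deficient cells was 4 without WT IL-27 array 1. The WT IL-27 count was 20 without WT medium array 2 or WT IL-27 array 2 and 21 without WT IL-27 array 3, and the WT IL-27 median was 0.37 without WT medium array 1. The STAT3-deficient IL-27 count was 3, 6 and 5 without medium array 1, medium array 2 and IL-27 array 1. In all 18 such fits 17 of the 27 genes stayed called lower. Alternatives chosen after seeing the data left out the STAT3-deficient IL-6 array 1 and IL-27 array 2, of lowest median signal (27 lower, 7 higher), or the 3 STAT3-deficient arrays numbered 3 (28 lower, 7 higher).

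The replicate block was not the main design, because same-numbered arrays of one genotype did not all deviate together (18 pairs, correlations of -0.15 to 0.36, median 0.14, 11 over 0.1). Pairs with different numbers had a median of -0.06, with 6 of 36 over 0.1. With the replicate block, 29 genes were called lower and 7 higher, and 39 and 10 were higher with IL-27 in WT and STAT3-deficient cells. With a block within each genotype those last counts were 43 and 13, and the genotype difference could not be fitted. Dim genes are limited by signal over background: 34 of the 132 lay below a level of 8 in WT medium.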
